A study of Mus musculus with 192 samples.

Results

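Single mouse embryonic fibroblasts, connective-tissue cells grown out of C57BL/6 embryos, were divided by how strongly they started transcription of 5 extracellular matrix genes, Sparc, Col1a1, Col1a2, Col3a1 and Col5a2, and the cells at the top were compared with those at the bottom. The members were chosen by this measured score. The score of a cell was the summed signal of its start-site peaks on the strand of these genes within 1000 bp of an annotated start, in tags per 10000000 tags of the cell. Of 192 cells, 177 reached the depth minimum, 92 naïve and 85 pretreated. Within each group the cells were ranked separately. The 30 naïve and 28 pretreated cells at the top of the ranking and the same numbers at the bottom, 116 cells in all, entered the comparison and are called score-high and score-low here.

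The study sequenced the 5′ ends of RNA from single cells, an assay of transcription start sites, to find alternative start sites in the response to interferon-beta. Per the labels all cells had received interferon-beta, an antiviral cytokine, at 100 U/ml for 1 h, and no untreated cell was included. The labels place 96 cells in a group named Naïve-1h-MEFs and 96 in a group named Pretreated-1h-MEFs. The nature of the pretreatment is not stated, nor is any animal, culture or plate. Each group therefore counted as 1 sample made of many cells. The score was itself measured in these cells, so no test was run and no p-value is given. Intervals are 95% and cover counting error only, since a tag is a read and not a molecule.

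Fibroblasts build the matrix around themselves. Type I collagen, made of chains encoded by Col1a1 and Col1a2, and type III collagen, encoded by Col3a1, form the main fibrils of soft connective tissue, and type V collagen, to which Col5a2 contributes, helps set the size of those fibrils. Collagen chains are hydroxylated, folded and checked in the endoplasmic reticulum, carried out in enlarged transport vesicles and trimmed and crosslinked outside the cell. Sparc encodes osteonectin, a secreted glycoprotein that binds collagen and is not itself a collagen.

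The start regions of 3 score genes and of Rrm2, a replication gene that was lower in score-high cells of both groups, are shown because the comparison turns on tags near annotated starts. Each line gives the 150 bases before the annotated start on the strand of the gene, from RefSeq on build GRCm38.p6. Capitals mark matches on either strand to the letters of a TATA box (spelled TATAA), of a CCAAT box (spelled CCAAT) and of a GC box (spelled GGGCGG). Of 5 score genes, 3 were matched in the promoter table, and Col1a1 and Col5a2 were not.
Sparc, chr11:55420081-55420230, minus strand: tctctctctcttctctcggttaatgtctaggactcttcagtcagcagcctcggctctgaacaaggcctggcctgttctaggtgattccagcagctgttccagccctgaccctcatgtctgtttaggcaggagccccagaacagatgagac
Col1a2, chr6:4505468-4505617, plus strand: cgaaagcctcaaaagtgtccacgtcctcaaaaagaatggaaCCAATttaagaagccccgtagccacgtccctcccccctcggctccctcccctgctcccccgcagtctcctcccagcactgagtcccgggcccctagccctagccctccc
Col3a1, chr1:45311388-45311537, plus strand: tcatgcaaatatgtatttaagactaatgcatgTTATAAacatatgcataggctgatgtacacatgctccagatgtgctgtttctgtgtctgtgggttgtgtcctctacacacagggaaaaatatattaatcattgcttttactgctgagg
Rrm2, chr12:24708104-24708253, plus strand: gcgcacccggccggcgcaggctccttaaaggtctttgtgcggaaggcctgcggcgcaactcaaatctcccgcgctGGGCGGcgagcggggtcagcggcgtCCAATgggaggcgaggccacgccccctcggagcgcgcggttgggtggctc
In Col1a2 the CCAAT match began 109 bases before the annotated start, and in Rrm2 it began 50 bases before, with a GGGCGG match 75 bases before. In Col3a1 overlapping TATAA matches on the 2 strands began 118 and 117 bases before the start. The Sparc stretch held none of the 3 motifs. The leading windows of these score genes lay after the annotated start, at 213 and 231 bp for Sparc, 84 bp for Col1a2, and 95 and 92 bp for Col3a1. The printed stretches of the 3 genes therefore hold none of those windows, and motif distances count from the annotated start. Among all 32851 promoters of the table cut to the same 150 bases, a TATAA match was held by 14.2%, a CCAAT match by 24.5% and a GGGCGG match by 28.6%. A match is a description of letters and not a binding site.

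The label under which these cells were chosen speaks of collagen, but the score was mainly a measure of Sparc. Sparc supplied 79.04% of the summed score of the kept naïve cells and 84.8% of that of the pretreated cells. Col1a1 supplied 9.16% and 8.27%, Col5a2 6.42% and 3.42%, Col3a1 4.25% and 2.50%, and Col1a2 1.13% and 1.03%. Across cells, which share library chemistry and depth, Spearman's rho between Sparc and the score that contains it was 0.96 over both the 92 naïve and the 85 pretreated cells. Between pairs of the 5 genes it ran from -0.06 to 0.37. The cells are therefore described by their Sparc-led score and not as a collagen type.

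**Figure D1:**
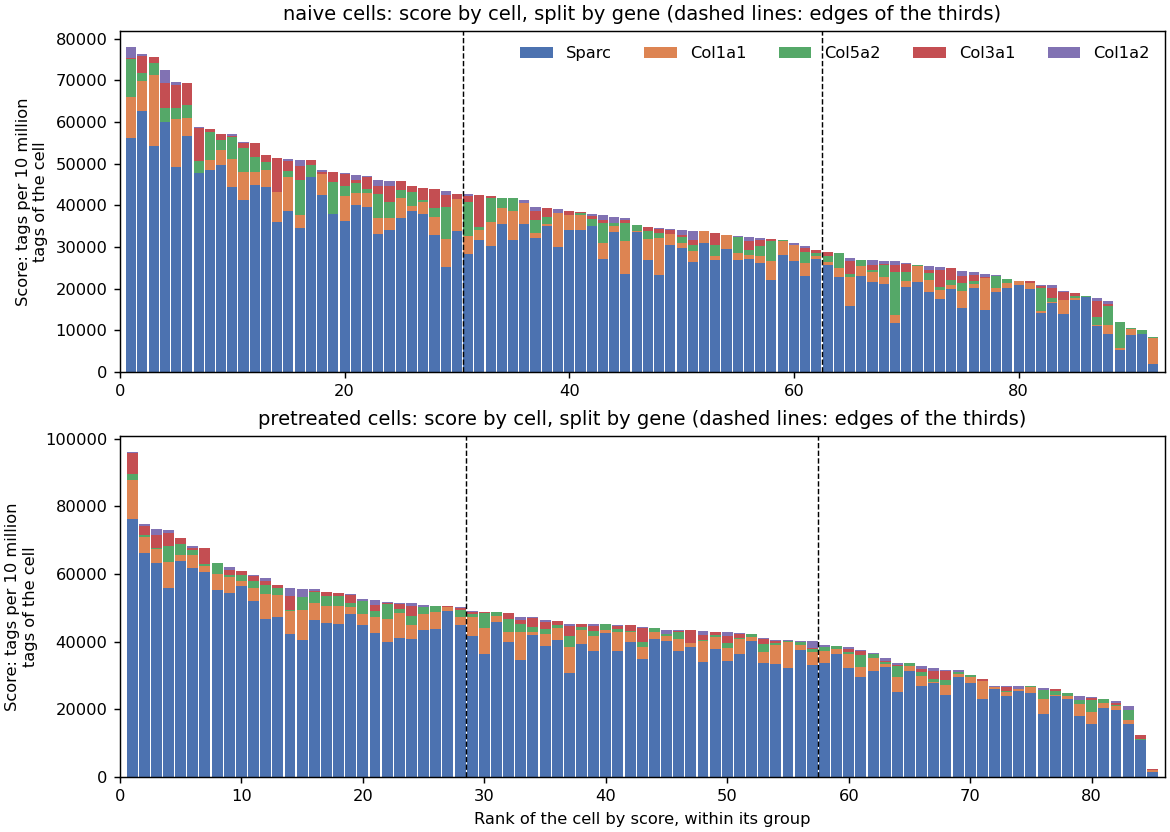
Score of each kept cell in tags per 10000000 tags of the cell, ordered by rank within naïve (upper panel) and pretreated cells (lower panel), with the contribution of each gene stacked in colour. Dashed lines mark the edges of the score-high and score-low cells, and Sparc fills most of nearly every bar.

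The score was continuous, with no gap between the groups of cells. Score-high naïve cells had scores from 42675 to 77910 with a median of 50980, and score-low naïve cells from 8392 to 28698 with a median of 23399. In pretreated cells the range was 50089 to 95971 (median 55776) for score-high and 2321 to 38849 (median 27927) for score-low. At the upper edge the last naïve cell inside had 42675 and the next outside 42643, and in pretreated cells these values were 50089 and 48965. At the lower edge the values outside and inside were 29264 and 28698 in naïve cells, and 40035 and 38849 in pretreated cells.

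Sparc was listed in all 116 cells. In naïve cells its signal ran from 25192 through a median of 40659 to 62769 in score-high cells, and from 1868 through 17681 to 25600 in score-low cells. Pretreated cells ran from 39983 through 46954 to 76111 in score-high cells, and from 1324 through 24909 to 36222 in score-low cells. The ranges overlapped slightly in naïve cells and did not overlap in pretreated cells, as the ranking largely fixed.

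The collagen genes overlapped far more between the ends of the ranking. Col1a1 had a median signal of 4162 in score-high and 1429 in score-low naïve cells, but was listed at 0 in 4 of 30 score-high cells. In pretreated cells the medians were 4851 and 1640. Col3a1 was listed in 30 of 30 score-high and 19 of 30 score-low naïve cells, with medians of 2389 and 555, and in 23 and 14 of 28 pretreated cells, with medians of 1115 and 124. Col5a2 had medians of 2887 and 1026 in naïve and 1951 and 784 in pretreated cells. Col1a2 was no higher at the median of score-high naïve cells, at 247 in both, and was listed in 16 of 30 cells at either end. All of these values entered the score and carry no weight as a result.

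The tags of the score genes lay in few windows of the deposited table, which is on build mm9. Col1a1 used a single 150 bp promoter window, chr11:94797494-94797643 on the plus strand, 30 bp from the annotated start. Sparc used mainly 2 overlapping windows in its 5′ untranslated region on the minus strand, chr11:55233295-55233444, 213 bp from the annotated start, and chr11:55233277-55233426, 231 bp from it. In naïve cells the first held 83.3% of the Sparc tags of score-high cells, in 25 of 30 cells, and 54.4% of those of score-low cells, in 17 of 30. The second held 16.7% in 5 cells and 38.3% in 10 cells. In pretreated cells the first was listed in 19 score-high and 16 score-low cells of 28 each, and the second in 9 and 12. These windows overlap, and 98.5% of naïve and 100% of pretreated Sparc tags lay within 50 bp of the first.

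Most collagen tags lay elsewhere in the genes, in windows more than 1000 bp from the annotated start, which the score did not use. These held 82.2% and 81.5% of the Col1a1 tags of naïve and pretreated cells, 95.997% and 96.8% for Col1a2, and 79.3% and 80.1% for Col3a1, against 22.97% and 27.3% for Sparc. In these distant windows Col1a1, Col1a2 and Col3a1 were higher in score-high cells. Col5a2 was lower in summed tags only, with near-equal medians per cell. Levels are in tags per 1000000 gene tags (CPM), here over windows at any distance.

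For Col1a1 the distant level of naïve cells ran from 1464 through a median of 2335 to 4978 CPM in score-high cells and from 474 through 1380 to 8113 CPM in score-low cells, a log2 ratio of summed tags of 0.82 (0.81 to 0.83). Pretreated cells ran from 1130 through 2653 to 4194 CPM and from 249 through 1540 to 14794 CPM, a log2 ratio of 0.50. Most cells followed the difference in medians, but the highest cell of each group was a score-low cell. Col3a1 had medians of 909.9 and 485 CPM in naïve and 708 and 273 CPM in pretreated cells, with log2 ratios of 0.96 and 1.07. Col1a2 had medians of 1600 and 799.9 CPM, and of 2159 and 1389 CPM, with log2 ratios of 0.47 and 0.44. The score-high cell was above the score-low cell in 77.2% and 77.6% of cell pairs for Col1a1, 78.2% and 78.4% for Col3a1, and 72.6% and 72.6% for Col1a2, naïve and pretreated. The ranges overlapped in all of these.

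The distant windows of Col5a2 were at 86.4 against 134 CPM in naïve and 22.4 against 35.8 CPM in pretreated cells, from at most 16 cells at either end. Its medians per cell were 39.2 and 39.1 CPM in naïve cells and 0 at both ends in pretreated cells. The score-high cell was above in 46.9% of naïve and 42.1% of pretreated pairs. Naïve score-low cells 31 and 69 were at 2227 and 1354 CPM. Distant Sparc windows, at 1408 against 1063 CPM and 2401 against 1554 CPM, gave log2 ratios of 0.41 and 0.63. Whether tags far from an annotated start mark other start sites or other positions in the RNA was not tested.

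**Figure D2:**
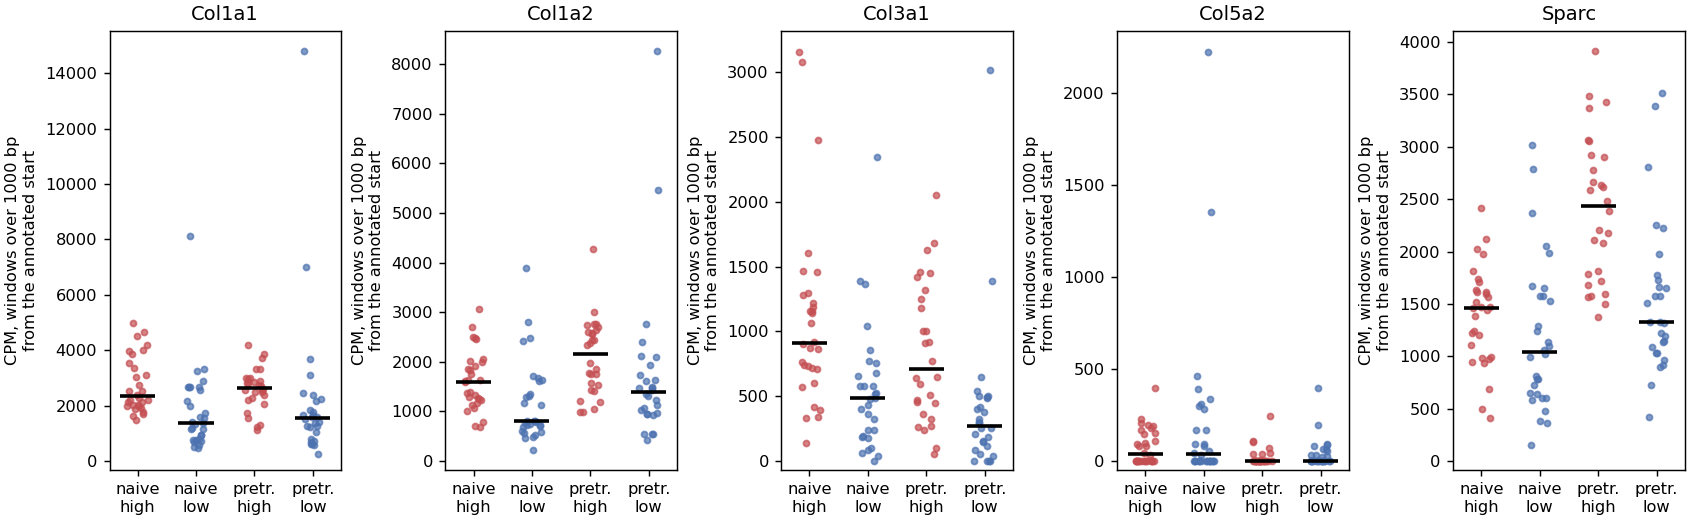
Level of each score gene in windows more than 1000 bp from its annotated start, in CPM, one point per cell, with the median of each set of cells as a bar. Score-high cells (red) have the higher median for Col1a1, Col1a2, Col3a1 and Sparc in both naïve and pretreated cells, with overlapping ranges and single score-low cells (blue) at the top of some panels.

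A pair of cells stood apart from the rest. In naïve cell 31, 10.4% of tags lay at gene starts and 506 genes had a tag, and in pretreated cell 93 these values were 12.6% and 634. The medians over kept cells were 59.7% and 1969 genes in naïve and 72.97% and 2934 genes in pretreated cells. Each of these cells had the lowest score of its group, so both were score-low. Without them the distant log2 ratios of Col1a1 became 0.85 in naïve and 0.71 in pretreated cells, and those of Col3a1 0.96 and 1.29.

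The medians of depth and quality differed little between the ends of the ranking compared with the spread among cells. Median total tags were 1743480 in score-high and 2183820 in score-low naïve cells, within a range of 305066 to 3857030 over all kept naïve cells. In pretreated cells they were 2740770 and 2182820, within a range of 502374 to 13174300 over all kept pretreated cells. Deeper cells weigh more in summed tags. Pretreated score-low cells 64, 62 and 88 had 11086489, 10954308 and 10646757 tags, while the deepest pretreated score-high cell had 7779844. The median number of genes with a tag at a start was 1894 and 2028 in naïve, and 2837 and 2967 in pretreated cells. The share of mitochondrial tags had medians of 0.847% and 0.725% in naïve cells, and none were listed in pretreated cells. Spearman's rho between score and total tags was -0.05 over 92 naïve cells and 0.20 over 85 pretreated cells. The part of depth in the results was not tested beyond ranking cells separately above and below the median depth.

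Defining markers of other cell types were at or near 0. All 10 epithelial, 11 skeletal muscle and 10 erythroid markers were listed at 0 at both ends of both groups. Of 10 endothelial markers 9 were at 0 in each group, including Pecam1 and Cdh5, with a summed level of at most 14.3 CPM at either end. Of 14 leukocyte markers 10 were at 0 in naïve and 11 in pretreated cells, including Ptprc and Csf1r, with 24.2 to 38.98 CPM summed. The 10 neural and 7 adipocyte markers summed to at most 14.2 and 65.6 CPM. Of the 10 pericyte and smooth muscle markers, Rgs5, Myh11 and Notch3 were at 0, and Acta2 and Cnn1, which fibroblasts also express, gave most of sums of 1063 and 611 CPM in naïve and 2211 and 1763 CPM in pretreated cells, score-high first. Of 11 cartilage and bone markers, 8 were at 0, including Acan, Col2a1, Sp7 and Bglap, and nearly all tags came from Spp1.

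Among fibroblast markers Vim, an intermediate filament gene of mesenchymal cells, was listed in nearly every cell, at 1036 and 1095 CPM in naïve and 2116 and 1625 CPM in pretreated cells. Lum, Nt5e, Eng, Dpp4 and Pi16 were listed at 0 in both groups, and Thy1, Pdgfra and Dcn did not pass the filter. Of the 5 markers that entered in naïve cells, 4 had ratios below 0. Pdgfrb, a growth factor receptor of mesenchymal cells, was at 27.3 and 60.3 CPM in naïve cells (-1.14, or -0.27 without score-low cell 64), where it passed the minimum through the score-low end alone, and at 27.9 and 46.9 CPM in pretreated cells, where it did not pass the filter. All 4 that entered in pretreated cells had ratios above 0. The summed level of the list of 20 markers, without the 4 score genes among them, had per-cell medians of 2211 and 2210 CPM in naïve, and 3481 and 3114 CPM in pretreated cells. A gene listed at 0 may have had tags under the minimum of the peak caller.

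For the comparison across all other genes, tags at gene starts were summed over the cells of each end and scaled to CPM without the 5 score genes. Genes entered when either end had at least 50 CPM and a share of 20% or more of cells with a tag. A gene that reached 50 CPM at 1 end alone could only come out higher at that end, so the filter fixed its direction. Ratios are log2 of score-high over score-low with 0.5 tag added to each sum, and a gene at least 2-fold apart is counted as past the fold. In naïve cells 2773 genes entered, of which 282 (10.2%) were at least 2-fold higher and 328 (11.8%) at least 2-fold lower in score-high cells. In pretreated cells 3084 entered, of which 214 (6.94%) were higher and 298 (9.66%) lower. The median ratio of all genes was -0.06 and -0.05.

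Many of these counts rested on few cells. Of the 282 and 328 naïve genes, 147 and 175 stayed past 2-fold whichever cell was left out, and of the 214 and 298 pretreated genes 116 and 135 did. The naïve and pretreated comparisons share no cell. Among 2386 genes that entered both, 27 (1.13%) were past 2-fold higher in both and 31 (1.3%) past 2-fold lower in both, while 12 (0.503%) were higher in naïve and lower in pretreated cells and 12 (0.503%) the reverse. The 27 were 13.5% of the 200 higher in naïve cells and 24.5% of the 110 higher in pretreated cells, and the 31 were 12.4% of 249 and 19.1% of 162. The sign was the same for 1414 genes (59.3%). Genes are not independent of each other, and across them Pearson's r between the 2 sets of ratios was 0.17 and Spearman's rho 0.20. With any 1 cell left out, 8 of the 27 and 9 of the 31 stayed past 2-fold in both. With cells ranked by the 4 collagen genes alone, a choice made after the data were seen, 8 of the 27 and 7 of the 31 did, and 19 and 28 kept their direction in both. Beside the members of the fixed lists and the highest and lowest genes, list genes past 2-fold in 1 group only, cell type markers, Clspn, Lox, Serpinh1 and Spp1 were named after their values were seen.

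**Figure D3:**
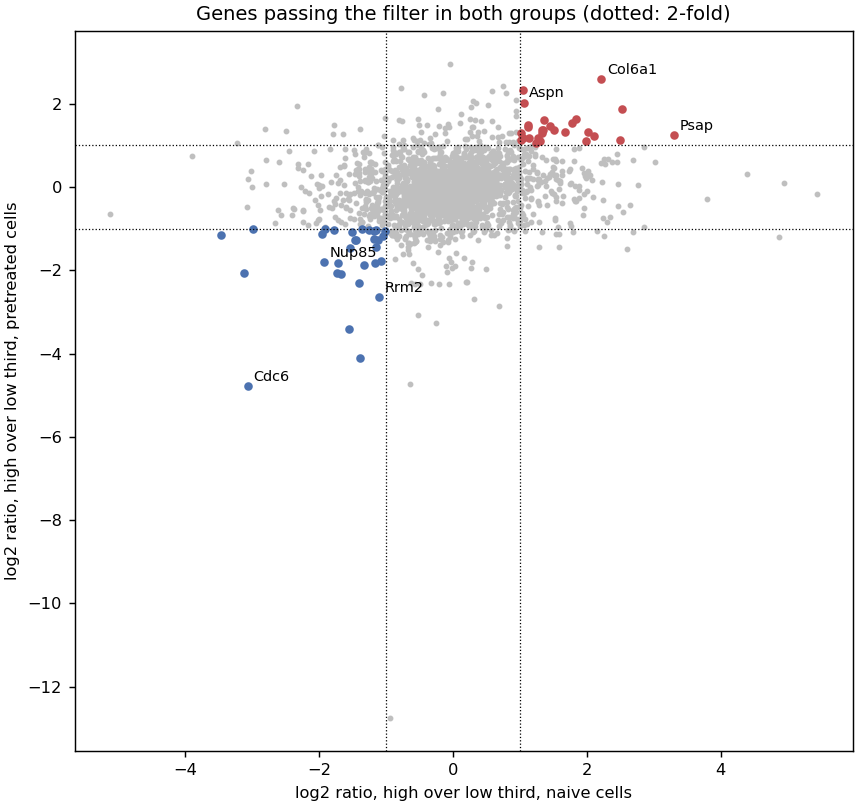
Log2 ratio of score-high over score-low cells in naïve (x axis) and pretreated cells (y axis) for the 2386 genes that entered both comparisons, 1 point per gene, with dotted lines at 2-fold. Red points are the 27 genes past 2-fold higher in both and blue points the 31 past 2-fold lower in both; the lowest point is Clspn, listed at 0 in score-high pretreated cells, so its position depends on the 0.5 tag added.

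Few further collagens could be measured. Of 25 other collagen genes, 11 had a tag in naïve and 9 in pretreated cells, and 2 entered in each, all of them past 2-fold higher. Col6a1 in both groups and Col14a1 in naïve cells passed the 50 CPM minimum through the score-high end alone, so their direction was fixed by the filter and the count supports nothing. With a narrower top and bottom of the ranking the naïve median of the list was -0.41, against 2.69 here. Col6a1, a chain of the beaded-filament collagen VI that surrounds cells, was listed in 9 of 30 score-high and 2 of 30 score-low naïve cells, at 67.9 and 14.6 CPM, a log2 ratio of 2.22 (2.08 to 2.36). In pretreated cells it was listed in 12 and 6 of 28 cells, at 69.5 and 11.5 CPM, a log2 ratio of 2.59 (2.47 to 2.71). Most cells at both ends had no Col6a1 tag, so the ranges overlapped, and with any 1 cell left out the ratios stayed at or above 1.71 and 2.31. Col14a1, a fibril-associated collagen, was at 60.6 and 6.79 CPM in naïve cells (log2 ratio 3.16, in 10 and 3 cells) and was listed at 0 in pretreated cells. Col6a2 was at 212 and 104 CPM in pretreated cells (1.02), which became 0.81 without cell 40 of the score-high end, and had a ratio of -0.12 in naïve cells, at 25.6 and 27.9 CPM, where it did not enter.

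Genes that fold, modify and process collagen were higher in score-high cells as a group, mostly by less than 2-fold. All 10 list genes that entered in naïve cells had ratios above 0, with a median of 0.56, against -0.06 for all genes. Of these, 3 were past 2-fold higher, against 10.2% of all genes, and 0 past 2-fold lower. All 12 that entered in pretreated cells had ratios above 0, with a median of 0.72 against -0.05. Of these, 4 were past 2-fold higher, against 6.94% of all genes, and 0 lower. With any 1 cell left out, 0 of the 3 and 2 of the 4 stayed past 2-fold. Some of the signs were fixed by the filter, among them those of naïve Sec23a and pretreated Fkbp10, which reached 50 CPM at the score-high end alone. Serpinh1, given below, reached 50 CPM at that end alone in both groups, so its sign was fixed wherever it entered. Of the 38 genes of the list, 25 and 28 had a tag. The summed level of the list ran from 3224 through 7306 to 11047 CPM per score-high naïve cell and from 886 through 4512 to 8599 CPM per score-low naïve cell. Pretreated cells ran from 4801 through 7563 to 13475 CPM and from 2857 through 5300 to 13805 CPM. The ranges overlapped, and the score-high cell was above the score-low cell in 81% of naïve and 84.7% of pretreated cell pairs.

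Pcolce encodes an enhancer of the enzyme that trims the end of procollagen. It was listed in all 116 cells, from 322 through 1641 to 2844 CPM in score-high and from 228 through 735 to 2078 CPM in score-low naïve cells, a log2 ratio of 0.89 (0.87 to 0.91). Pretreated cells ran from 447 through 1186 to 2483 CPM and from 108 through 677 to 2802 CPM, a log2 ratio of 0.75 (0.73 to 0.76). The score-high cell was above in 82% and 79.3% of pairs, so the medians were apart while the ranges overlapped.

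Ppib, cyclophilin B, a prolyl isomerase that speeds folding of the collagen helix, had summed levels of 2787 and 1934 CPM in naïve (0.53) and 2666 and 2044 CPM in pretreated cells (0.38). P4hb and P4ha1 encode the subunits of prolyl 4-hydroxylase. P4hb was at 688 and 299.9 CPM in naïve cells (1.20), and 0.88 without cell 79 of the score-high end, and at 1214 and 1057 CPM in pretreated cells (0.20). P4ha1 was at 624 and 496 CPM (0.33), and 810 and 601 CPM (0.43). Serpinh1, the collagen chaperone Hsp47, was low in this assay, at 57.6 and 38.9 CPM in naïve and 55.4 and 49.8 CPM in pretreated cells (0.57 and 0.15). Lox, the crosslinking enzyme lysyl oxidase, was at 162 and 125 CPM (0.38), and 172 and 99.5 CPM (0.79).

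Kdelr3, a receptor that returns proteins to the endoplasmic reticulum, was past 2-fold in both groups, at 216 and 99.4 CPM in naïve (1.12) and 235 and 83.1 CPM in pretreated cells (1.50), in 17 and 9 of 30 and 20 and 13 of 28 cells. Without score-high cell 71 the naïve ratio was 0.90. Sec23a, part of the vesicle coat that large collagen cargo depends on, was also past 2-fold in both, at 1.05 and 1.18, but rested on single cells: 0.03 in naïve cells without score-high cell 16, and 0.99 in pretreated cells without score-low cell 64. Fkbp10 and Fkbp7, prolyl isomerases of the endoplasmic reticulum, were past 2-fold in pretreated cells, at 91.96 and 37.02 CPM (1.31) and 211 and 89.85 CPM (1.23). Fkbp7 was 0.89 without score-high cell 26, and its naïve ratio was 0.36. Ranked without Sparc, the naïve ratio of Sec23a was -0.05.

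**Figure D4:**
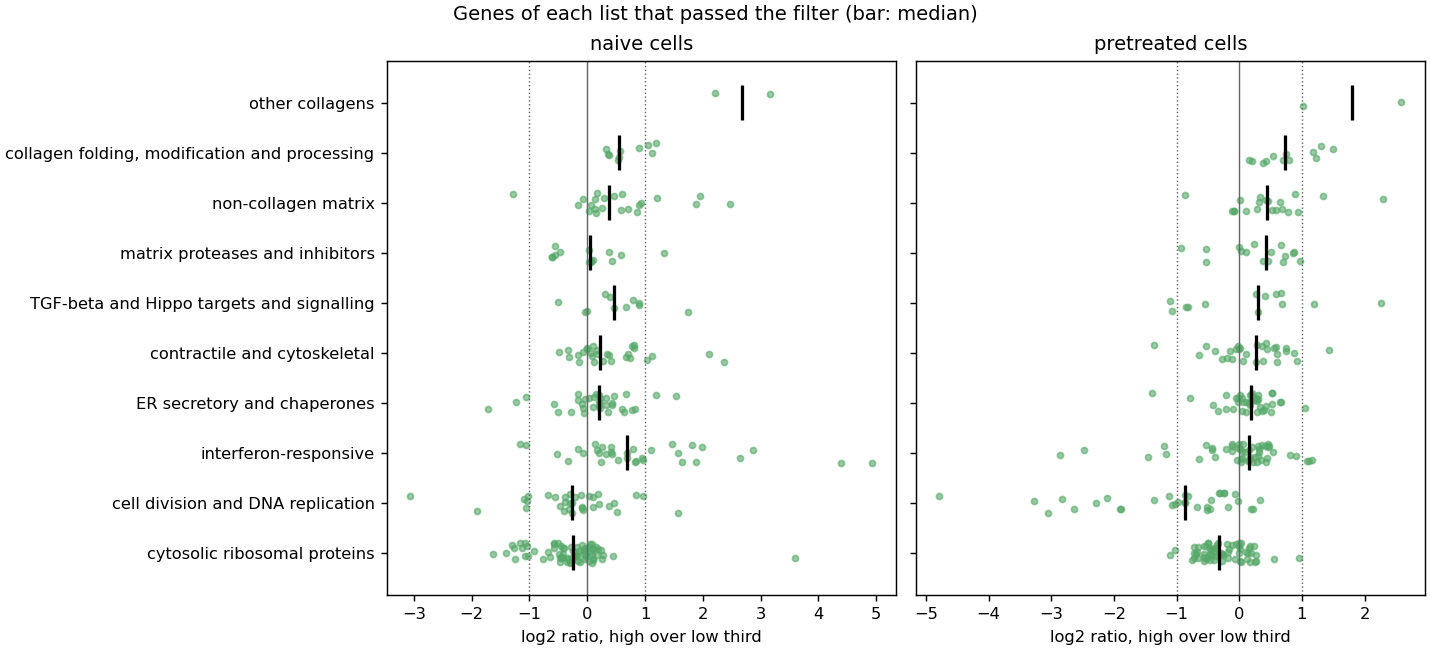
Log2 ratio of score-high over score-low cells for the genes of 10 lists that passed the filter, 1 point per gene, in naïve (left) and pretreated cells (right), with the list median as a bar and dotted lines at 2-fold. The collagen folding genes lie to the right of 0 in both panels, and the cell division genes reach far to the left in pretreated cells.

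Other matrix genes were higher in most cases by small amounts. Of 68 non-collagen matrix genes, 22 entered in naïve cells, with 19 ratios above 0 and a median of 0.38, and 20 in pretreated cells, with 16 above 0 and a median of 0.45. Past 2-fold higher were 4 in naïve (Fbln5, Spon2, Efemp1 and Ccdc80) and 2 in pretreated cells (Postn and Ogn), against 10.2% and 6.94% of all genes, and Prelp was past 2-fold lower in naïve cells. The pretreated count was close to the share over all genes. The 4 naïve genes and Postn reached 50 CPM at the score-high end alone, and Prelp at the score-low end alone. Their direction was fixed by the filter, so the naïve counts support nothing. Summed over the list, cells ran from 4762 through 9014 to 15498 and from 3268 through 6264 to 15581 CPM in naïve, and from 8842 through 11646 to 18014 and from 5626 through 8651 to 19368 CPM in pretreated cells. The score-high cell was above in 71% and 82.02% of pairs, and the ranges overlapped.

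Fbln5, fibulin-5, an elastic-fibre protein, was at 121 and 32.9 CPM in naïve (1.88, 1.55 or more with any cell left out) and 566 and 294 CPM in pretreated cells (0.94). In pretreated cells it ran from 95.6 through 560 to 1146 CPM in score-high and from 0 through 239 to 1485 CPM in score-low cells, with 28 and 25 of 28 cells listed. Aspn, asporin, a small proteoglycan that binds collagen, was past 2-fold in both, at 342 and 164 CPM (1.06) and 100.3 and 24.7 CPM (2.02). It was 0.59 in naïve cells without score-high cell 79. In pretreated cells it reached 50 CPM at the score-high end alone, so the filter fixed its direction there. Ogn, the related proteoglycan osteoglycin, was at 325 and 236 CPM (0.46), and 262 and 104 CPM (1.34). Postn, periostin, a matrix protein that binds collagen and is made by activated fibroblasts, was at 56.5 and 37.8 CPM (0.58), and 52.4 and 10.6 CPM (2.30).

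Among the remaining calls Spon2 was at 76.9 and 13.9 CPM in naïve cells (2.46), from 7 and 4 cells. Ccdc80 had a ratio of 1.21, or 0.91 without score-high cell 44, Efemp1 1.96, or 0.84 without score-high cell 6, and Prelp -1.29, or 0.17 without score-low cell 78. The abundant members differed less. Mgp, an inhibitor of mineral deposition, had ratios of 0.13 and 0.52, Bgn (biglycan) 0.07 and 0.65, Aebp1 0.26 and 0.29, and Fbln2 0.29 and 0.11, naïve first. With 1 cell left out, those of naïve Bgn and pretreated Fbln2 came to -0.09 and -0.05.

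Matrix proteases and their inhibitors had a median of 0.05 over 14 genes in naïve and 0.42 over 16 genes in pretreated cells. Mmp2 alone was past 2-fold higher in naïve cells (1.33, or 0.61 without score-high cell 29), against 10.2% of all genes. No pretreated gene was past 2-fold. Timp3, a matrix-bound protease inhibitor, was at 2362 and 1574 CPM (0.59), and 1251 and 768 CPM (0.70). Ctsb, the lysosomal protease cathepsin B, was listed in all 116 cells, at 2609 and 2003 CPM (0.38) and 8008 and 6123 CPM (0.39). Serpine2 had ratios of 0.07 and 0.86 and Ctsz 0.03 and 0.67.

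Targets and parts of TGF-beta and Hippo signalling, pathways known to drive matrix genes in fibroblasts, were mixed. Their median was 0.47 over 11 genes in naïve and 0.30 over 13 genes in pretreated cells. In naïve cells 1 was past 2-fold higher, against 10.2% of all genes, and 0 lower. In pretreated cells 2 were higher and 2 lower, against 6.94% and 9.66%. Ccn5, a secreted protein of the connective-tissue growth factor family, stood out in pretreated cells. It ran from 185 through 509 to 1804 CPM in score-high and from 0 through 136 to 683 CPM in score-low cells, a log2 ratio of 2.26 (2.23 to 2.30), with the score-high cell above in 85.97% of pairs. In naïve cells it was at 387 and 224 CPM (0.79). Snai1, a transcription factor, was past 2-fold higher in pretreated cells (1.20, and 0.67 in naïve). Ccn3 was past 2-fold higher in naïve cells (1.75), while its pretreated ratio of -0.86 ran from -1.58 to 2.80 as single cells were left out. Tgif1 and Wwtr1 (the Hippo effector TAZ) were past 2-fold lower in pretreated cells, at -1.08 and -1.10, or -0.83 and -0.66 without score-low cell 88. The abundant Id3 had ratios of 0.39 and 0.26, Id2 -0.50 and 0.42, and Ccn1 -0.01 and -0.54.

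Contractile and cytoskeletal genes had medians of 0.22 over 28 genes and 0.27 over 29 genes. In naïve cells 4 were past 2-fold higher, against 10.2% of all genes, and 0 lower. In pretreated cells 1 was higher and 1 lower, against 6.94% and 9.66%. Summed per cell, the list had medians of 39045 and 36391 CPM in naïve cells, and in pretreated cells the order was the reverse of the median ratio, at 24058 and 25364 CPM with the score-high cell above in 46.3% of pairs. Cnn1, calponin, an actin-binding protein of contractile cells, was past 2-fold in both. It was at 445 and 205 CPM in naïve cells (1.12), or 0.86 without score-high cell 18. In pretreated cells it was at 92.7 and 34.2 CPM (1.44), from 11 and 5 of 28 cells. There it reached 50 CPM at the score-high end alone, so the filter fixed its direction. In naïve cells Csrp1 (2.38), Myh10 (2.11) and Tmsb10 (1.04) were also past 2-fold higher, Tmsb10 becoming 0.92 without score-high cell 74, and in pretreated cells Actn4 was lower (-1.36). Actb was at 15943 and 14853 CPM (0.10), and 4743 and 5277 CPM (-0.15). Tpm1, Cfl1 and Myl12a, also abundant, had ratios of 0.33, -0.32 and 0.12 in naïve and -0.20, -0.04 and -0.02 in pretreated cells. Acta2, smooth muscle actin, had ratios of 0.68 and 0.29, and the second became -0.24 without score-high cell 27.

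Secretory and chaperone genes of the endoplasmic reticulum had medians of 0.21 over 35 genes and 0.19 over 40. In naïve cells 2 were past 2-fold higher and 3 lower, against 10.2% and 11.8% of all genes. In pretreated cells 1 was higher and 1 lower, against 6.94% and 9.66%. All of these were smaller shares than over all genes. Past 2-fold were Kdelr2 (1.53) and Surf4 (1.19) higher and Dnajb11 (-1.72), Spcs3 (-1.23) and Rpn2 (-1.05) lower in naïve cells, and Ddit3 (1.05) higher and Creld2 (-1.39) lower in pretreated cells. Surf4, a cargo receptor for secreted proteins, and Creld2 and Dnajb11 kept these calls with any 1 cell left out. Kdelr2 came to 0.93 without score-high cell 80, Spcs3 to -0.48 without score-low cell 78, Rpn2 to -0.78 without score-low cell 81 and Ddit3 to 0.83 without score-high cell 6. The abundant Hsp90b1, Ost4 and Arf4 had ratios of 0.15 to 0.33 in both groups, and Dad1 had -0.04 in naïve and 0.15 in pretreated cells.

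Genes of DNA replication and cell division had lower medians in score-high cells of both groups. Of 33 genes that entered in pretreated cells 13 were past 2-fold lower, against 9.66% of all genes, and 0 past 2-fold higher. Ratios below 0 were found for 30, and the median was -0.86. Among the 13, Cdc6, Mcm3, Mcm5, Mcm7 and Fen1 reached 50 CPM at the score-low end alone, so the filter fixed their direction. Rrm2, Gins2, Mcm4, Mcm6 and Cdk1 reached it at both ends. Of 33 in naïve cells 6 were past 2-fold lower, against 11.8% of all genes, Rrm1 was past 2-fold higher (1.56), 22 had ratios below 0, and the median was -0.26. The difference between the groups was not tested. Summed over the 60 genes of the list, pretreated score-high cells ran from 764 through 2947 to 15991 CPM and score-low cells from 1010 through 7926 to 15223 CPM. Naïve cells ran from 805 through 7470 to 27903 and from 882 through 13357 to 20226 CPM. Cells with very low and very high sums occurred at both ends, and the score-high cell was above in 32.3% of pretreated and 39.3% of naïve pairs.

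Rrm2, the regulated subunit of the enzyme that makes deoxynucleotides, whose start region is shown above, was at 159 and 341 CPM in naïve (-1.10) and 55.6 and 347 CPM in pretreated cells (-2.64, -2.45 or below with any cell left out). It was listed in 12 of 30 score-high and 21 of 30 score-low naïve cells, and in 13 and 16 of 28 pretreated cells. Without score-low cell 5 the naïve ratio was -0.96. Cdc6, which loads the replicative helicase, was at 9.77 and 81.6 CPM (-3.06, 2 and 6 cells) and 2.88 and 79.7 CPM (-4.79, 2 and 10 cells). In both groups Cdc6 reached 50 CPM at the score-low end alone, so the filter fixed its direction. Gins2, a part of the active helicase, was at 74.6 and 279 CPM (-1.90), and 133 and 270 CPM (-1.02), or -0.70 without score-low cell 88 and 0.18 with the ranking split at its middle.

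The helicase subunits themselves differed in pretreated cells. Mcm3 was at 43.2 and 212 CPM (-2.29), Mcm4 at 67.8 and 293 CPM (-2.11), Mcm5 at 14.04 and 99.3 CPM (-2.82), Mcm6 at 132 and 289 CPM (-1.13) and Mcm7 at 43.6 and 111 CPM (-1.35). Mcm6 became -0.86 without score-low cell 88. In naïve cells the ratios of Mcm3, Mcm4 and Mcm7 were -0.32, -0.46 and -0.67. Naïve Mcm7 reached 50 CPM at the score-low end alone, so the filter fixed its direction. Fen1, which trims Okazaki fragments, was at 10.98 and 91.6 CPM (-3.06) and Cdk1, the kinase that starts mitosis, at 175 and 367 CPM (-1.07, or -0.87 without score-low cell 64) in pretreated cells. Clspn, a checkpoint mediator outside the rule for named genes, was listed in 0 of 28 score-high and 10 of 28 score-low pretreated cells. Of genes that act in mitosis, Birc5 had ratios of -1.06 and -0.52, and Ccnb2 -0.55 and -0.33, and naïve Birc5 was -0.89 without score-low cell 61.

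Interferon-responsive genes were higher in naïve score-high cells, in a study in which every cell had received the cytokine. Of 34 that entered, 28 had ratios above 0, 11 were past 2-fold higher, against 10.2% of all genes, and 2 past 2-fold lower, and the median was 0.69. In pretreated cells 51 entered, 3 were past 2-fold higher and 5 past 2-fold lower, near the shares of 6.94% and 9.66% of all genes, and the median was 0.15. The difference between the groups was not tested. Summed over 72 genes, naïve cells ran from 5761 through 18066 to 46387 CPM in score-high and from 4321 through 12481 to 56147 CPM in score-low cells, and the score-high cell was above in 73.4% of pairs. Pretreated cells ran from 34652 through 42270 to 58420 and from 14306 through 41558 to 68577 CPM, with 58.9% of pairs.

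Usp18, which removes the ubiquitin-like Isg15 and dampens interferon signalling, ran from 0 through 760 to 4580 CPM in score-high and from 0 through 188 to 1304 CPM in score-low naïve cells, in 28 and 21 of 30 cells, a log2 ratio of 1.65 (1.62 to 1.68). In pretreated cells it was at 1623 and 1876 CPM (-0.21). Cxcl10, a chemokine that attracts T cells, was at 714 and 115 CPM in naïve cells (2.64, or 1.60 without score-high cell 79), from 16 and 6 cells, and at 521 and 701 CPM in pretreated cells (-0.43). Mx2, an antiviral GTPase, was at 147 and 20.2 CPM (2.87) and Lgals9, galectin-9, at 323 and 109 CPM (1.57) in naïve cells. Ifi44, an interferon-induced gene, was listed in 11 and 3 naïve cells, at 106 and 3.45 CPM (4.94), and in 28 and 27 pretreated cells, at 673 and 632 CPM (0.09). In naïve cells Mx2 and Ifi44 reached 50 CPM at the score-high end alone, so the filter fixed their direction. Ifit3 and Ifit3b had naïve ratios of 1.82 and 1.98 and pretreated ratios of 0.01 and 0.30, but share 31.8% and 33.8% of the 50-base stretches at their transcript starts with each other, so the split between them is uncertain. Ifit1, an antiviral RNA-binding protein, was at 1557 and 870 CPM (0.84) and 1913 and 1419 CPM (0.43).

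Ifitm3, which blocks virus entry, had ratios of 0.21 and 0.16, and B2m, the light chain of MHC class I, 0.14 and 0.46. Ifitm2, a relative of Ifitm3, was at 3060 and 2308 CPM in naïve (0.41) and 141 and 75.1 CPM in pretreated cells (0.91, with the score-high cell above in 76.1% of pairs), but 66.9% of the 50-base stretches at its transcript starts occur in other genes, so its value is uncertain. Bst2 and Psmb8 were past 2-fold lower in naïve cells at -1.16 and -1.06, or -0.77 without score-low cell 65 and 0.43 without score-low cell 78. In pretreated cells Irf7, Tapbp and Ifi27l2a were past 2-fold higher at 1.11, 1.16 and 1.08, or 0.92 without score-low cell 64, 0.77 without score-high cell 89 and 0.81 without score-high cell 40. Ccl5, Trim25, Dtx3l, Oasl1 and Cmpk2 were past 2-fold lower at -2.87, -2.48, -1.45, -1.20 and -1.17, of which Oasl1 became 0.80 and Cmpk2 -0.44 without score-low cell 88.

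**Figure D5:**
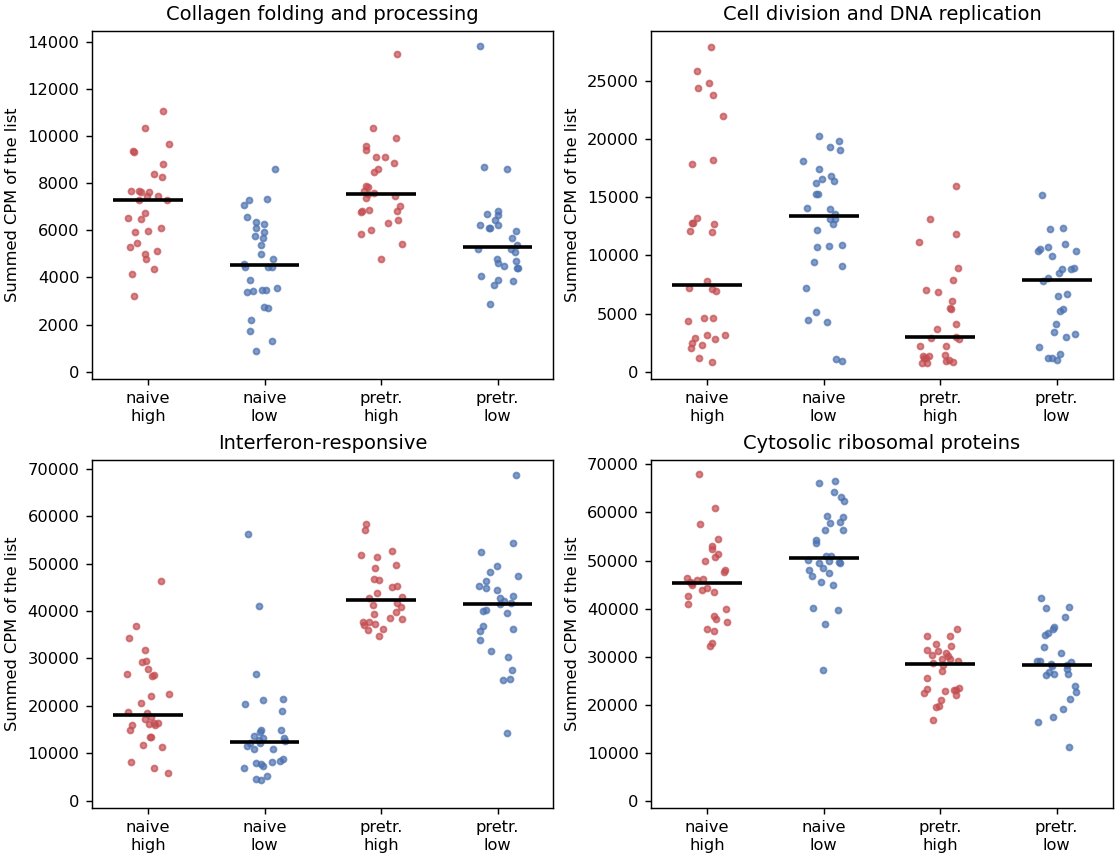
Summed CPM of 4 gene lists in single cells, with score-high cells in red, score-low cells in blue and medians as bars. Collagen folding genes have the higher median in score-high cells of both groups, cell division genes the lower median, interferon genes have the higher median in naïve score-high cells and close medians in pretreated cells, and all ranges overlap.

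Cytosolic ribosomal protein genes had medians below 0 in both groups. Of 73 that entered in naïve cells 54 had ratios below 0, 11 were past 2-fold lower, near the 11.8% of all genes, and Rps2 was past 2-fold higher (3.60, from 9 and 2 cells), with a median of -0.24. Of 63 in pretreated cells 45 had ratios below 0, with a median of -0.33, and Rpl21 (-1.11) and Rpl24 (-1.03) were past 2-fold lower, a smaller share than the 9.66% of all genes. Per cell, the summed level had medians of 45416 and 50472 CPM in naïve and of 28502 and 28330 CPM in pretreated cells, so in pretreated cells the medians per cell did not follow the summed ratio. Rpl24 was at 55.6 and 133 CPM in naïve cells (-1.26), and its pretreated value became -0.70 without score-low cell 88 and that of Rpl21 -0.42 without score-low cell 62. Ribosomal protein genes have many near-identical copies, and 47.2% of the 50-base stretches in the first 200 bases of Rpl24 transcripts occur in other genes, so its value is uncertain.

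Lists for other programmes showed no common direction. Immediate early and stress genes had medians of -0.01 over 20 genes and 0.34 over 23, glycolysis and hypoxia genes 0.11 and 0.02 over 14 each, and respiratory chain genes -0.02 over 57 and 0.06 over 55. Of the immediate early and stress genes, 2 in naïve and 4 in pretreated cells were past 2-fold higher, against 10.2% and 6.94% of all genes. In pretreated cells Fos, Jun and Ier2, genes induced within minutes of stimulation, were past 2-fold higher. They were at 386 and 129 CPM (1.58), 91.5 and 44.5 CPM (1.04) and 233 and 114 CPM (1.03). Jun became 0.84 without score-high cell 26 and Ier2 0.84 without score-low cell 62, and the naïve ratios of the 3 genes were 0.42, -0.35 and -0.80. Dusp6, a feedback phosphatase of the MAP kinase pathway, was past 2-fold higher in both, at 59.3 and 29.2 CPM (1.02) and 58.4 and 26.6 CPM (1.13), or 0.73 without score-high cell 17 and 0.92 without score-high cell 6. Dusp6 in both groups and Jun in pretreated cells reached 50 CPM at the score-high end alone, so the filter fixed their direction there.

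The genes highest in score-high cells of both groups were taken among those listed in at least 50% of those cells. Snhg18, a long non-coding RNA, was at 306 and 112 CPM in naïve (1.45) and 114 and 41.6 CPM in pretreated cells (1.46), in 26 and 12 of 30 and in 23 and 13 of 28 cells, with the score-high cell above in 74.4% and 72.1% of pairs. It stayed past 2-fold in both with any 1 cell left out, as did Pdlim4, an actin-associated protein, at 1.68 and 1.31. Psap, the precursor of the saposins of the lysosome, was at 98.5 and 9.94 CPM (3.31, in 17 and 3 cells) and 77.1 and 32.4 CPM (1.25, or 0.98 without score-high cell 82). Ctsa, a lysosomal carboxypeptidase, had ratios of 1.24 and 1.05, Cpq, a secreted carboxypeptidase, 1.02 and 1.29, and Os9, which sorts misfolded proteins for degradation, 1.36 and 1.60. Ctsa came to 0.67 without naïve score-high cell 19 and 0.86 without pretreated score-low cell 64, naïve Cpq to 0.89 without score-high cell 94 and naïve Os9 to 0.72 without score-high cell 79. Psap reached 50 CPM at the score-high end alone in both groups, as did Pdlim4 in naïve and Snhg18 and Os9 in pretreated cells. Their direction there was fixed by the filter.

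Rcn3, a calcium-binding protein of the secretory pathway that takes part in collagen production, was at 250 and 129 CPM (0.95), and 226 and 53.2 CPM (2.09), with the score-high cell above in 80.2% of pretreated pairs. Ptn, the secreted growth factor pleiotrophin, was the most abundant gene of this set. It ran from 0 through 1949 to 10422 CPM in score-high and from 282 through 1114 to 9267 CPM in score-low naïve cells (0.97), and from 311 through 3305 to 11054 and from 0 through 1449 to 5770 CPM in pretreated cells (1.10, or 0.95 without score-high cell 68). Gstt1, a glutathione transferase, had ratios of 0.94 and 1.70.

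The genes lowest in score-high cells of both groups were taken among those listed in at least 50% of score-low cells. Nasp, a histone chaperone active in replicating cells, was at 23.9 and 79.5 CPM (-1.74), and 12.8 and 53.4 CPM (-2.06), in 8 and 17 of 30 and in 5 and 14 of 28 cells. Hat1, a histone acetyltransferase that modifies new histone H4, was at 21.4 and 134 CPM (-2.65), and 101 and 182 CPM (-0.86), and Rbbp7, a histone-binding protein, at 162 and 498 CPM (-1.62), and 315 and 579 CPM (-0.88). The score-high cell was above in 28.7% and 35.6% of pairs for Hat1 and 30.9% and 24.2% for Rbbp7. Nup85, a nuclear pore scaffold, had ratios of -1.93 and -1.80, and it and Nasp stayed past 2-fold in both with any 1 cell left out. Nup85 and Nasp reached 50 CPM at the score-low end alone in both groups, as did Hat1 in naïve cells. Their direction there was fixed by the filter.

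Nip7 and Nhp2, which take part in ribosome assembly, had ratios of -1.17 and -1.82, and -0.87 and -1.14. The values of Nip7 became -0.91 without score-low cell 93 and, in pretreated cells, -0.04 without score-low cell 28. Med4, a mediator subunit, had ratios of -1.50 and -1.08, or -0.96 in pretreated cells without score-low cell 64. Acer3, a ceramidase, was at -1.45 and -1.27 and Psmd1, a proteasome subunit, at -0.88 and -0.90. In naïve cells Med4 and Acer3 reached 50 CPM at the score-low end alone, so the filter fixed their direction there.

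Spp1, which encodes osteopontin, a secreted matrix protein and bone marker, was lower in score-high cells without reaching 2-fold. It ran from 0 through 842 to 5746 CPM in score-high and from 0 through 2191 to 9085 CPM in score-low naïve cells, a log2 ratio of -0.80. In pretreated cells it ran from 72 through 2439 to 12491 and from 209 through 5055 to 13569 CPM, a ratio of -0.31. The score-high cell was above in 36.1% and 34.1% of pairs, and the ranges overlapped.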

How the data were processed

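The 192 deposited peak tables, 1 per cell, hold a normalised signal that the authors made by counting 5′ end tags in called peaks and scaling them to 10000000 tags per cell, per the file headers. The headers also give the settings of the peak search with HOMER, and the submitters' processing notes name Bowtie2, HOMER and the build mm9. Another column, per the file headers, is a focus ratio, a fraction from 0 to 1, which was summarised only. A further 384 columns without a sample name were not used.

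Tags were recovered as signal times the total of the cell divided by 10000000. All 1082504 peaks gave whole tags within 0.1 tag, and they summed to the 426263116 tags that the headers place in peaks. No molecular identifiers are given. Cells with at least 10% of the median total of 2305627.5 tags were kept. Gene strands came from GENCODE and RefSeq tables for 18361 of 18460 gene names. Levels are tags per 1000000 gene-start tags without the score genes. Since no table replicates a condition with independent samples, no count model was fitted, and 2-fold counts with leave-one-cell-out ranges stand in its place. The calculation was tested on simulated data. Python 3.11.15, pandas 2.3.3, numpy 2.4.6, scipy 1.17.1 and matplotlib 3.10.9 were used.

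The members, gene lists and named genes were chosen with earlier results of these data known. Named were the score genes, from each list the 4 most abundant genes measured in both groups or part of them, list genes past 2-fold in both, and the 12 highest and 12 lowest genes that a share of 50% or more of cells at the higher end listed, in both groups, ordered by the smaller ratio. Alternatives covered scaling, filters, other divisions of the ranking, other scores, windows at any distance and single cells left out.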

Additional observations from a re-analysis of the deposited data

Results flagged for a closer look

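Windows named after Col3a1 also held tags on the strand opposite to that gene, which no comparison above used. There were 59588 such tags in 87 of the 92 naïve cells and 70538 in 79 of the 85 pretreated cells. Per 1000000 gene-start tags this was 611 in score-high and 582 in score-low naïve cells, and 457 and 317 in pretreated cells. The study had no control cells without these genes, and the source of these tags was not tested.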

How the results depend on the processing

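Of 16 alternatives, 13 were planned and 3 were added after seeing the data (scores without Sparc, scores from windows at any distance, and leaving out naïve cell 31 and pretreated cell 93). The 610 naïve and 512 pretreated genes past 2-fold became 302 and 274 when scaled to header totals, where fewer genes passed the CPM minimum (1922 and 2255 against 2773 and 3084), 5179 and 5176 with no filter beyond 10 tags, 83 and 76 with a 200 CPM minimum, 323 and 280 with the ranking split at its middle, and 258 and 171 at 3-fold. The 27 higher and 31 lower in both groups, together 58, became 14 and 8 with header totals, together 22, 32 and 23 with median-of-ratios scaling, 5 and 9 with the split at the middle, 31 and 20 without the highest cell of each gene, 26 and 17 with the mean rank of the 5 genes, and 3 and 6 at 3-fold. These are counts of genes called anew under each setting. With header totals 1654 genes were tested against 2386, and 27 of the 27 and 25 of the 31 were still past 2-fold. Of the same 27 and 31, 24 and 24 were still past 2-fold without the highest cell of each gene. With the mean of cell CPM, where each cell weighs the same, 13 and 13 were. Only 6 and 8 were with the mean rank, and 4 and 6 with the split at the middle. The count past 2-fold the same way in both groups was 1240 with no filter, 6 with 200 CPM, 14 with the split at the middle and 9 at 3-fold. The median of the non-collagen matrix list stayed above 0 in both groups, from 0.17 to 0.62 and from 0.25 to 0.63, and the folding list likewise, from 0.34 to 0.72 and from 0.35 to 1.03. That of the naïve cell division list reached 0.06 and that of the other collagens -0.41 in naïve cells with a narrower top and bottom. Among 3840 gene ratios 26 reversed, and the cause was not tested. With the split at the middle these were pretreated Gins2 (0.18) and Rpl21 (0.056), and with a narrower top and bottom of the ranking naïve Efemp1 (-0.21) and pretreated Oasl1 (0.35). With the mean of cell CPM they were pretreated Sec23a (-0.67), Col6a2 (-0.33) and Tapbp (-0.96). Oasl1 gave 0.60 without its highest cell and 0.83 with a score without Col1a1. With the mean rank they were pretreated Gins2 (0.13), Acer3 (0.0060), Irf7 (-0.21), Cmpk2 (0.055) and Oasl1 (0.054) and naïve Dusp6 (-0.31), and with windows at any distance naïve Ccdc80 (-0.31) and pretreated Oasl1 (0.11). Without Sparc in the score they were naïve Sec23a (-0.051), Efemp1 (-0.68), Rps2 (-0.13) and Mmp2 (-0.26) and pretreated Cnn1 (-0.82), Acer3 (0.21) and Snai1 (-0.23), and with the score from any distance pretreated Mcm5 (0.84) and naïve Rrm1 (-0.28). No paired analysis was possible because the cell number only names a cell and no test was run. Each group is 1 sample, so no value shows how another culture would differ.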
